A study of Mus musculus with 8 samples.

Results

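Neurons of the mouse spinal cord labelled as regenerating were set against traced neurons of the uninjured cord. The regenerating set is every nucleus that the deposited annotation calls a neuron in the regenerating GFP library of experiment 3, which gave 238 nuclei. The reference is every annotated neuron in the GFP fractions of the 2 uninjured replicates of experiment 1, with 80 nuclei in traced library 1 and 25 in traced library 2. Together these 343 nuclei are part of 4076 annotated neurons and 12447 nuclei in 8 libraries. The mice were wild type C57BL/6 in every group, the tissue was low thoracic spinal cord, and transcripts in single nuclei were counted by unique molecular identifiers (UMIs). The other 5 libraries were used for context and for the spread between replicates. They are the 2 untraced GFP-negative fractions of the uninjured replicates, 2 libraries taken after a hemisection, and 1 uninjured library of experiment 2. The labels give the regenerating library the condition regen and name no lesion, age or time after injury for it.

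The regenerating group is 1 library without a replicate. It differs from the traced libraries at once in condition, experiment and depth, so these cannot be told apart in what follows. Per the labels, GFP marks traced neurons, chosen for an axon that reaches the lumbar cord, and the tracer itself was not analysed here. The 238 regenerating nuclei carry no barcode sequence in the deposited names, so whether they are 1 preparation or several could not be read from them. The same holds for 4489 of the 6637 nuclei of the uninjured library of experiment 2. Among the 7716 barcode sequences of the remaining nuclei, 4 occurred in more than 1 library.

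Neurons of the thoracic cord that send axons to lumbar segments are known as descending propriospinal neurons. They relay signals from the brain and can form detour routes around an incomplete lesion. Central axons of adult mammals regrow poorly, and regrowth in peripheral neurons is known to go with transcripts such as Gap43, Atf3, Jun and Sox11. Spinal neurons are also set apart by transcription factors: Zfhx3, Meis2 and Pbx3 are among those tied to early-born neurons with long axons, and Nfia, Nfib and Neurod2 to later-born neurons of local circuits.

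The regenerating nuclei were shallow. They held 135012 UMIs in all, with a median of 488 UMIs and 283.5 genes per nucleus and a range from 201 to 1798 UMIs. Traced libraries 1 and 2 held 1451849 and 333459 UMIs, with medians of 16489.5 and 12138 UMIs per neuron. The other libraries had medians between 5767 and 8907. Levels are given as counts per 1000000 UMIs of a library (CPM). In the regenerating sum 1 UMI is worth 7.41 CPM, and a count of 0 allows up to 22.2 CPM, the level of 3 UMIs. Only 2962 genes reached 10 UMIs there, against 10371 and 5909 in the traced libraries.

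A difference in the number of genes per nucleus remained at equal depth. When each nucleus was thinned to 300 UMIs, 201 regenerating nuclei remained and 37 shallower ones were left out. These nuclei held 208 ± 22.3 genes (mean ± SD over nuclei), against 259 ± 10.2 and 262 ± 12.6 in the traced libraries. Before thinning the means were 344, 4717 and 4056 genes. The means of the 7 other libraries at 300 UMIs ran from 248 to 262, so the regenerating library lay below all of them. Of the genes detected in a thinned regenerating nucleus 73.8% had a single UMI, against 89.3% and 90.1% in the traced libraries. UMIs of a gene were thus piled up in fewer nuclei. Among genes with 10 to 20 UMIs in all, 6.50% had more than 50% of them in 1 regenerating nucleus, against 0.703% in traced library 1. The cause of the pile-up was not tested, and the highest nucleus is given below for each gene on which a result turns.

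**Figure D1:**
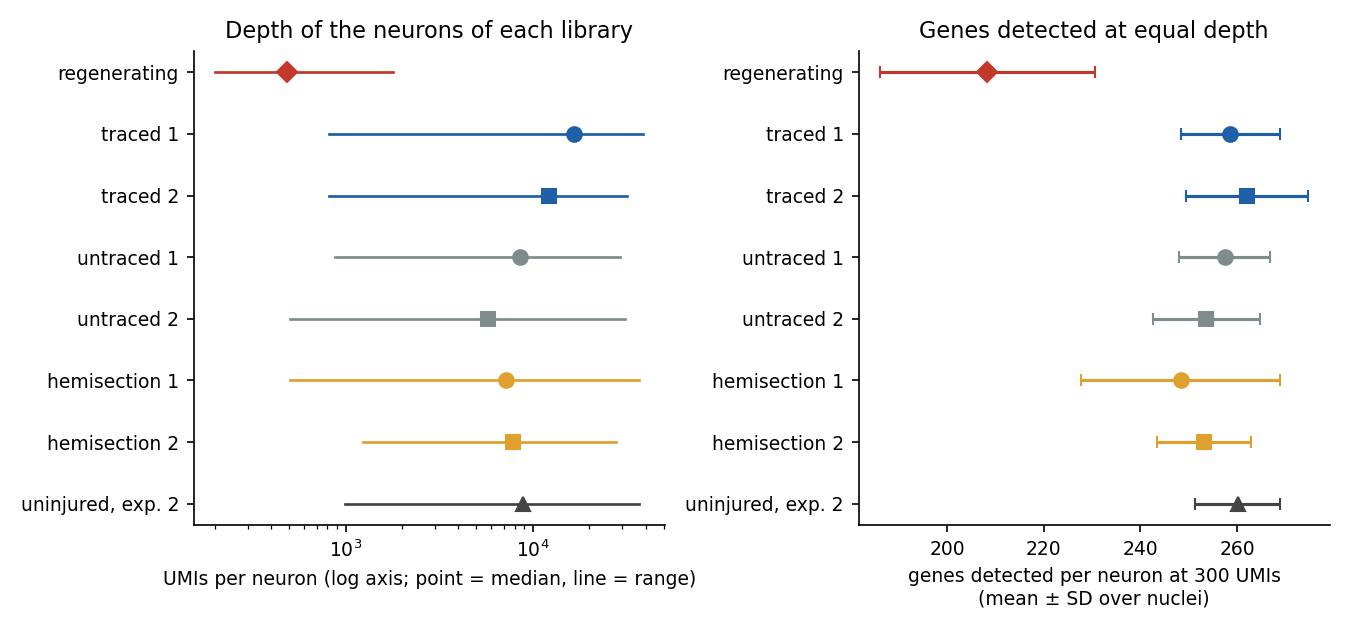
UMIs per neuron (left, log axis, median and range) and genes detected per neuron after thinning to 300 UMIs (right, mean ± SD over nuclei) in the 8 libraries. The regenerating library has the lowest median, 488 UMIs, and the fewest genes at equal depth, 208.

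The nuclei carried neuronal transcripts. The summed level of the 7 neuron markers found in the matrix, among them Rbfox1, Snap25 and Snhg11, was 18798 CPM in the regenerating library and 18578 and 19466 CPM in the traced libraries. The vesicular glutamate transporter Slc17a6 had UMIs in 13 of 182 regenerating nuclei with an excitatory subtype name and in 0 of 54 with an inhibitory name. Gad1, an enzyme of GABA synthesis, had UMIs in 5 of the 54 inhibitory and in 2 of the 182 excitatory nuclei. The gap in depth shows here, since 61 of 69 excitatory nuclei of traced library 1 had a Slc17a6 UMI. Of 32 genes that occur in the names of subtypes with regenerating nuclei, 17 had a UMI in their own subtype and 15 had none. All 17 were higher in their own subtype than in the other regenerating nuclei, but they were picked for having a UMI there. In a small subtype 1 UMI can be enough: 1 UMI of Nmur2 gave 366 CPM in 8 DE_Reln_Nmur2 nuclei, against 15.1 CPM in the others. The comparison was thus close to fixed in advance and does not test the names. Among the 15, Cpne4 was at 0 in 26 DE_Maf_Cpne4 nuclei and at 269 CPM in the other regenerating nuclei, and Qrfpr had 0 UMIs in 17 DE_Sox5_Qrfpr nuclei. In the same subtypes of the other libraries Cpne4 was at 94.8 CPM and Qrfpr at 108 CPM, levels that give few UMIs in so few shallow nuclei. At this depth, and with genes picked in that way, the name genes are at most a weak check of the subtype names.

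The deposited subtype names begin with letters read here as position (D dorsal, V ventral) and transmitter (E excitatory, I inhibitory). Dorsal excitatory (DE) neurons made up 47.1% of regenerating neurons (exact 95% binomial interval 40.6% to 53.6%), against 37.5% and 36.0% in traced libraries 1 and 2. Ventral excitatory neurons of the VEP family made up 29.0% (23.3% to 35.2%), between the 38.8% and 24.0% of the traced libraries. The VEP share was 7.34% and 4.88% in the untraced fractions, 8.10% and 4.63% after hemisection and 12.01% in the uninjured library of experiment 2. The 3 GFP-sorted libraries thus had the highest VEP shares of the 8, and the regenerating one did not stand outside the traced pair.

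Dorsal inhibitory (DI) neurons made up 12.6% of regenerating neurons (8.67% to 17.5%), against 3.75% and 4.00%, or 3 and 1 nuclei, in the traced libraries. The 5 remaining libraries had 18.2% to 26.0%. DI was the family with the smallest p when numbers of nuclei were tested with edgeR (quasi-likelihood), with a log2 fold change of 1.72 ± 0.56 (SE) and a Benjamini-Hochberg adjusted p of 0.102 over 11 families. In all, 0 of 11 families (percent called 0%) passed an adjusted p of 0.05, and 1 had an unadjusted p under 0.05. Counting only nuclei with at least 500 UMIs, 1 family, DI, passed. That cut kept 113 of 238 regenerating nuclei, whereas no traced neuron had fewer than 815 UMIs. It favours deeper nuclei, and regenerating DI nuclei had a median of 616.5 UMIs, against 417 in DE and 494 in VEP nuclei. The part of this depth difference in the DI call was not tested. No other tool was run on the shares. Over all families, names with a D took 59.7% of regenerating neurons and 41.2% and 40.0% of traced ones. The untraced fractions had 74.9% and 83.7%, so the regenerating value lay between the traced and the untraced ones.

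Ventral inhibitory neurons of the VIP family made up 6.72% (3.89% to 10.7%), between 3.75% and 16.0% in the traced libraries. The VEL family, a smaller ventral excitatory group, had 1 regenerating nucleus, against 5 of 80 and 0 of 25 traced nuclei. Motor neurons had 0 of 238 regenerating nuclei, which allows a share of up to 1.26% by the floor of 3 counts and of 1.54% by the exact interval, and 0 and 2 traced nuclei. Excitatory names as a whole took 76.5% (70.6% to 81.7%), again between 86.2% and 60.0%.

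**Figure D2:**
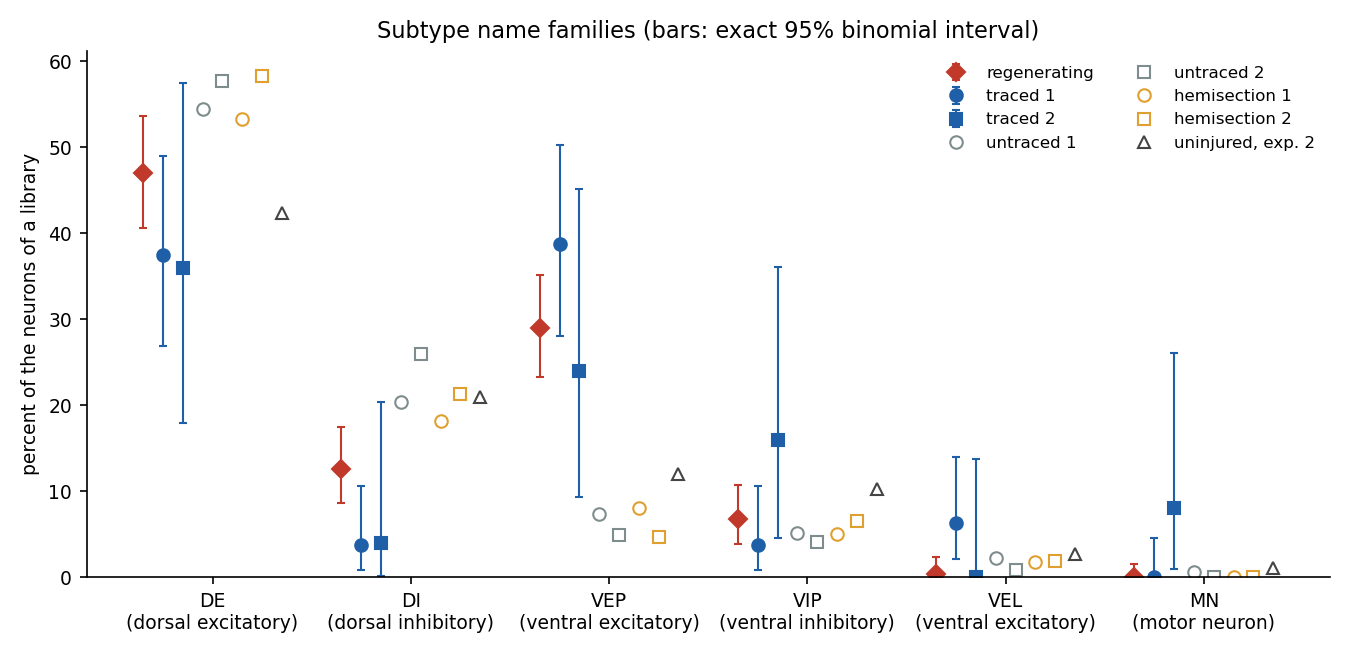
Share of 6 subtype name families among the neurons of each of the 8 libraries, with exact 95% binomial intervals for the regenerating and traced libraries. VEP is highest in the 3 GFP-sorted libraries, and DI is 12.6% in the regenerating library against 3.75% and 4.00% in the traced pair.

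Of the 28 subtypes, 23 had a regenerating nucleus and 12 had at most 3. In the same test 0 of 28 passed (percent called 0%), and 6 had an unadjusted p under 0.05. The one with the smallest p was DE_Tac1, with 0 of 238 regenerating nuclei, under the same limits, against 3 of 80 and 1 of 25 traced nuclei (adjusted p = 0.0839). DE_Sox5_Qrfpr had 17 regenerating nuclei (7.14%) against 1 and 0 traced nuclei (adjusted p = 0.217), and DE_Cck_Cpne4 had 8 (3.36%) against 0 and 0 (adjusted p = 0.217). MEP_Lmx1b_Satb1 had 0 against 3 and 0 (adjusted p = 0.217). DE_Tac2_Nmu had 25 (10.5%) against 2 and 2 (adjusted p = 0.233). Among the subtypes with most regenerating nuclei were also DE_Maf_Cpne4 with 26 (10.9%, traced 13.8% and 8.00%) and DI_Pdyn_Gal with 15 (6.30%, traced 1.25% and 4.00%). The 25 DE_Tac2_Nmu nuclei held all 10 UMIs of Tac2 and all 11 of Nmu.

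The genes with most UMIs were much the same in regenerating and traced neurons. These counts are not per length, so they order genes within a library only by UMIs. Lsamp, a cell adhesion gene of neurons, ranked first in all 3 libraries, with 10199 CPM in the regenerating and 9263 and 10088 CPM in the traced libraries, and had a UMI in 206 of 238 regenerating nuclei. Rbfox1, a neuronal splicing regulator, was at 8340 CPM against 5549 and 6589, and Asic2, an acid-sensing ion channel, at 6177 against 4466 and 3665. Both lay above the range of all 7 other libraries. Snhg11, a noncoding RNA of neurons, was at 4955 CPM against 7844 and 6882 and lay below all 7. The log2 fold change in edgeR's fit was 0.44 ± 0.27 (SE) for Rbfox1 (adjusted p = 0.441), 0.58 ± 0.27 for Asic2 (adjusted p = 0.340) and -0.60 ± 0.30 for Snhg11 (adjusted p = 0.364). Cntnap2, Dlg2, Nrg3, Kcnip4, Nrxn3, Fgf14 and Pcdh9, genes of synaptic contact and excitability, were also among the 12 genes with most UMIs. Their fold changes ran from -0.50 (Pcdh9) to 0.47 (Nrxn3). In edgeR 0 of the 12 were called. Of the 50 genes with most UMIs, the regenerating library shared 41 and 42 with the traced libraries, and 44 to 47 with the other 5.

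The test across all genes found few differences. UMIs were summed over the neurons of each library and fitted in edgeR with all 8 libraries, so that the replicated groups gave the spread and the regenerating library was assumed to vary like them. Of 11601 tested genes 32 passed an adjusted p of 0.05, which is 0.276%. Of these, 25 were higher in regenerating neurons (0.215%) and 7 lower (0.0603%). DESeq2 called 39 higher and 2 lower genes. With all libraries thinned to the regenerating total, edgeR called 27 higher and 17 lower, of which 17 were shared with the 32, 31 of them tested. With nuclei thinned to 300 UMIs, 12 of the 32 could be tested and 2 stayed called, Arhgap6 and Maml3. On numbers of nuclei with a UMI at that depth, chosen after seeing the data, 8 could be tested and 0 stayed called. In the fit of all 11601 tested genes, 695 higher and 1014 lower ones had an unadjusted p under 0.05. The median log2 fold change of all tested genes was -0.28. That median is moved by 2150 tested genes with no regenerating UMI, and it was -0.07 with such genes at the bound that 3 UMIs set. The number of calls rested on traced library 1: without it edgeR called 0 genes, with 1548 at an unadjusted p under 0.05, and without traced library 2 there were 28. Without untraced library 2 there were 49. An exact permutation of 1 against 2 libraries cannot give a two-sided p below 0.333.

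The 25 higher genes fell into genes found in many nuclei and genes found in a few. In 11 of them a single nucleus held more than 50% of the UMIs, and 9 had UMIs in at least 15 nuclei. The 25 highest nuclei were 23 different nuclei. When the highest nucleus of each gene in each library was left out, an alternative chosen after seeing the data, 8 genes were called, all of them among the 32: Arhgap6, Ebf2, Fras1, Maml3, Nmu, Pde1c, Spidr and Tshz1.

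**Figure D3:**
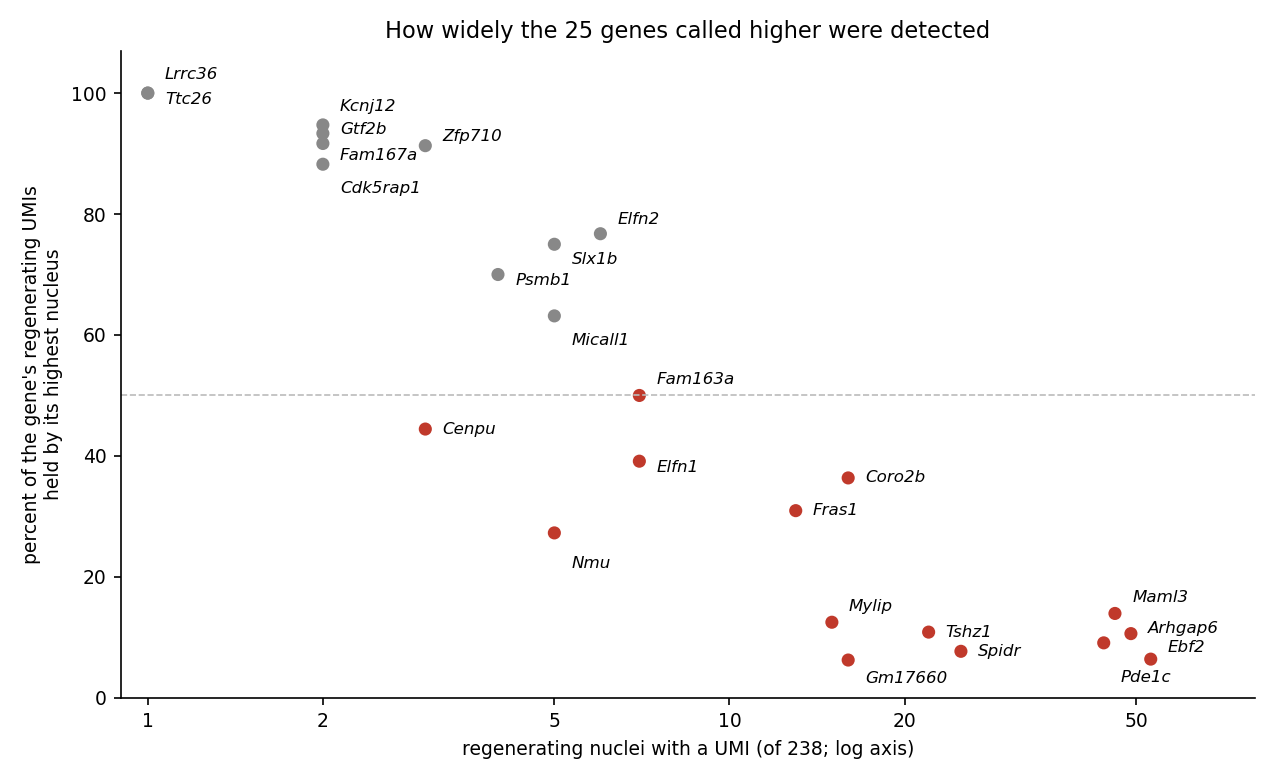
The 25 genes called higher in regenerating neurons, by the number of regenerating nuclei with a UMI (log axis) and the percent of their UMIs in the highest nucleus. The 11 grey genes above the dashed line at 50% rest mainly on 1 nucleus, while Ebf2 at the lower right had UMIs in 53 nuclei.

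Of the genes found in many nuclei, Ebf2, Maml3, Arhgap6, Pde1c, Tshz1, Fras1 and Coro2b fall outside the rule for named genes and were chosen after their values were seen. Ebf2 (chromosome 14, 67233292 to 67430918, plus strand, GRCm38), a transcription factor of the early B-cell factor family, was at 926 CPM in the regenerating library and at 243 and 201 CPM in the traced libraries. It rose by 2.01 ± 0.28 on the log2 scale (adjusted p = 0.00971), from 125 UMIs in 53 nuclei. The untraced, hemisection and experiment 2 libraries were at 570 to 913 CPM, so the traced pair was low beside all the others and the regenerating library was close above them. Ebf2 was called in 14 of 18 alternatives. Among 201 nuclei thinned to 300 UMIs 17.9% had an Ebf2 UMI (12.9% to 23.9%), against 8.75% (3.59% to 17.2%) and 8.00% (0.984% to 26.0%) of traced nuclei.

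The higher Ebf2 level was also seen within the dorsal excitatory family. There Ebf2 was at 2096 CPM in 112 regenerating nuclei and at 686 and 771 CPM in 30 and 9 traced nuclei. In the VEP family it was at 197 CPM, from 8 UMIs in 69 nuclei, and the traced libraries held 2 UMIs in 31 nuclei and 0 in 6. Among the inhibitory DI and VIP nuclei 1 of 30 and 0 of 16 regenerating nuclei held a UMI, against 1 of 3 and 0 of 1 traced DI nuclei and 0 of 3 and 1 of 4 traced VIP nuclei, at median depths of 616.5 and 568.5 UMIs against 494 in VEP and 417 in DE nuclei. Its relatives in the family differed in the same direction without passing the test. Ebf1 was at 2066 CPM against 1172 and 912 (log2 0.95 ± 0.28, adjusted p = 0.174), and Ebf3 at 511 against 198 and 339 (0.97 ± 0.34, adjusted p = 0.228).

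Maml3 (chromosome 3, 51685907 to 52105076, minus strand), a co-activator of Notch signalling, was at 955 CPM against 302 and 363 and rose by 1.52 ± 0.28 (adjusted p = 0.0291). It had 129 UMIs in 46 nuclei, 106 of them in DE nuclei, where its level was 1915 CPM against 474 and 581. Arhgap6 (chromosome X, 168795099 to 169304435, plus strand), a GTPase-activating protein, was at 837 CPM against 241 and 282 and rose by 1.67 ± 0.26 (adjusted p = 0.0103). The other 5 libraries were at 653 to 990 CPM for Arhgap6, so the regenerating level lay within their range and only the traced pair was below it. Pde1c (chromosome 6, 56069804 to 56569103, minus strand), a calcium-dependent phosphodiesterase of cyclic nucleotides, was at 489 CPM against 121 and 129 and rose by 1.95 ± 0.30 (adjusted p = 0.0103). It lay above all 7 other libraries, the highest of which had 173 CPM. Its levels by family were 434 CPM in DE nuclei (traced 69.4 and 154), 516 CPM in VEP nuclei (144 and 92.3) and 1016 CPM in VIP nuclei (192 and 21.6), from 24, 21 and 12 UMIs. Of the 12 VIP UMIs, 6 lay in 1 nucleus of VIP_V1_Mafa, a subtype with 0 traced nuclei. The traced VIP values came from 14 and 1 UMIs among 3 and 4 nuclei. In DI nuclei Pde1c was at 312 CPM, from 6 UMIs, against 273 and 0.

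Tshz1, a teashirt zinc finger transcription factor, was at 341 CPM against 70.9 and 48.0 and rose by 2.38 ± 0.33 (adjusted p = 0.00971), from 46 UMIs in 22 nuclei. Fras1, an extracellular matrix gene, was at 311 CPM against 51.7 and 39.0 and rose by 2.66 ± 0.39 (adjusted p = 0.0103). It had 42 UMIs in 13 nuclei, 13 of them in 1 nucleus. Coro2b, a coronin that binds actin, was at 244 CPM against 62.7 and 60.0 and rose by 1.95 ± 0.38 (adjusted p = 0.0450), with 12 of its 33 UMIs in 1 nucleus. All of these lay above the 7 other libraries.

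Spidr, Mylip and Gm17660 were at 18.6 CPM or less in every other library, and their UMIs were spread thinly over regenerating nuclei. Spidr (chromosome 16, 15889224 to 16146851, minus strand), a scaffold gene of DNA repair, was at 193 CPM against 11.7 and 3.00 and rose by 4.28 ± 0.66 (adjusted p = 0.0103). Its 26 UMIs lay in 25 nuclei of several families, and the highest other library had 18.6 CPM. Mylip (chromosome 13, 45389742 to 45412022, plus strand), a ubiquitin ligase, was at 119 CPM against 6.20 and 3.00 and rose by 4.40 ± 0.74 (adjusted p = 0.0172), from 16 UMIs in 15 nuclei. The gene model Gm17660, also outside the rule and chosen after its values were seen, had 16 UMIs in 16 regenerating nuclei against 0 and 1 traced UMIs. The ratio of its counts per UMI was 212 (95% interval 32.9 to 8872, counting error only; adjusted p = 0.0429). Gm17660 passed the filter only through the regenerating library, so its call is no separate evidence of a difference. Nmu, the neuropeptide neuromedin U, was at 81.5 CPM against 3.44 and 6.00 and rose by 4.31 ± 0.67 (adjusted p = 0.0103). Its 11 UMIs lay in 5 DE_Tac2_Nmu nuclei, the other 5 libraries had 31.5 to 46.2 CPM, and that subtype made up 25 of 238 regenerating and 2 of 80 and 2 of 25 traced neurons.

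**Figure D4:**
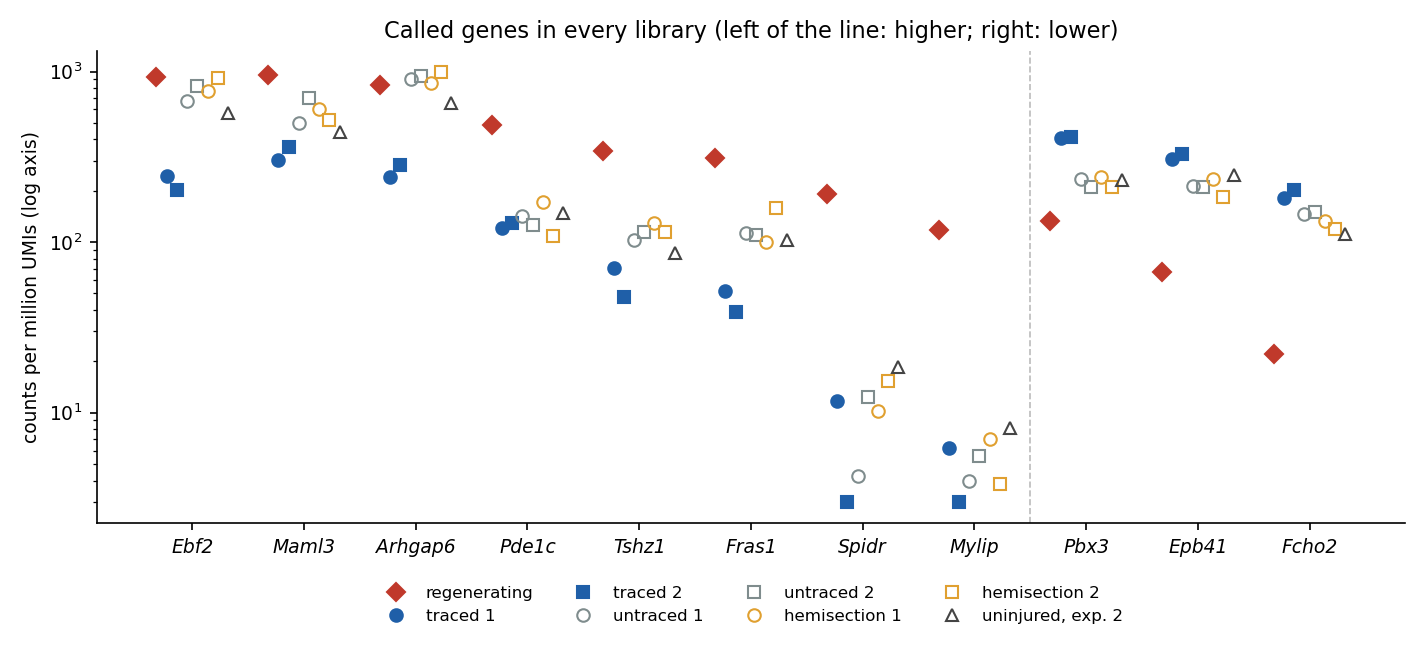
CPM (log axis) of 11 called genes in every library. Ebf2 and Arhgap6 in regenerating neurons are near the untraced and hemisection libraries, while Pde1c, Spidr and Mylip lie above all 7 and Pbx3, Epb41 and Fcho2 below all 7.

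The other rises named by rule rested on very few nuclei. Elfn2, a synaptic membrane gene, was at 318 CPM against 29.6 and 33.0, with 33 of 43 UMIs in 1 nucleus. Fam167a had 22 of 24 UMIs in 1 nucleus, Kcnj12, an inward rectifier potassium channel, 18 of 19, Zfp710 21 of 23 and Cdk5rap1 15 of 17. Ttc26, a gene of transport in cilia, and Lrrc36 had all their UMIs, 20 and 15, in 1 nucleus. Adjusted p ran from 0.00399 (Elfn2) to 0.0247 (Lrrc36), and fitted rises on the log2 scale from 2.92 (Zfp710) to 3.83 (Cdk5rap1) for those with more than 3 traced UMIs. Fam167a and Lrrc36 had 2 and 3 traced UMIs, and their ratios of counts per UMI were 159 (39.4 to 1385) and 66.1 (18.7 to 356). These intervals treat UMIs as independent, although 22 of 24 and all 15 regenerating UMIs came from 1 nucleus, so they are too narrow. Both genes passed the filter only through the regenerating library, so their calls are no separate evidence of a difference. The remaining called rises were Cenpu, Elfn1, Fam163a, Gtf2b, Micall1, Psmb1 and Slx1b, outside the rule, each with UMIs in 2 to 7 nuclei.

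The 7 lower genes had few or no UMIs in regenerating neurons. DESeq2 called 1 of them, Epb41, and did not call the other 6. Cenpv, Etfa and Zc3h15 had none. Etfa encodes a subunit of a mitochondrial electron carrier. Cenpv was at 136 and 105 CPM in the traced libraries and at least 5.43-fold lower in the regenerating one against a floor of 3 UMIs (adjusted p = 0.0172). Etfa, at 78.5 and 93.0 CPM, was at least 3.86-fold lower (adjusted p = 0.0370), and Zc3h15, at 78.5 and 87.0 CPM, at least 3.72-fold lower (adjusted p = 0.0407). Mpp7, a scaffold protein gene, had 1 UMI, and the traced level was 16.1 times the regenerating one (95% interval 2.86 to 639; adjusted p = 0.0313). Fcho2, a gene of clathrin-mediated endocytosis, had 3 UMIs, and the traced level was 8.37 times higher (2.84 to 40.8; adjusted p = 0.0172).

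Epb41 and Pbx3 had more counts. Epb41 (chromosome 4, 131923413 to 132075321, minus strand), which links spectrin and actin under the membrane, was at 66.7 CPM against 305 and 327 and fell by 2.26 on the log2 scale (SE 0.40, adjusted p = 0.0225). It had 9 UMIs in 9 nuclei, and the lowest other library had 184 CPM. Pbx3 (chromosome 2, 34171457 to 34373142, minus strand), a homeobox transcription factor, was at 133 CPM against 407 and 414 and fell by 1.65 (SE 0.32, adjusted p = 0.0450), from 18 UMIs in 14 nuclei. It lay below all 7 other libraries, 5 of which had 209 to 241 CPM. Within families it was at 181 CPM in DE nuclei (traced 419 and 249) and at 172 CPM in VEP nuclei (511 and 797). The Pbx3 call was made in 7 of 18 alternatives, among which the adjusted p ran from 0.0018 to 0.912, and it was lost with DESeq2 and with another scaling. Where fewer than 10 falls were called, the next by p were Cul2 and Cul4b, scaffold genes of ubiquitin ligases, and Ccar1. These had 0, 0 and 4 UMIs and adjusted p of 0.0761, 0.0951 and 0.0786.

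Pbx3 belongs to a list of 13 factors tied to long-range projection neurons. Their summed level was 1222 CPM in regenerating neurons (exact 95% Poisson interval 1043 to 1424), below the 2093 and 1961 CPM of the traced libraries. It lay within the range of the other 5, from 1042 to 1286 CPM. Of 12 tested members 1 was called, Pbx3, against 0.276% of all tested genes, and 10 had negative fold changes, against 7047 of all 11601. The median over the tested members was -0.86 (-0.49 with genes without UMIs at their bound), against -0.28 (-0.07) over all genes. Meis2, a homeobox partner of Pbx proteins, was at 156 CPM against 327 and 381 (log2 -1.19 ± 0.41, adjusted p = 0.224), and Zfhx4 at 104 against 249 and 216 (-1.21 ± 0.36, adjusted p = 0.178). Zfhx3 was at 400 CPM against 665 and 450 (-0.53 ± 0.31, adjusted p = 0.418). Its level was 762 CPM in VEP nuclei, against 1157 and 822. Hoxa7, a gene of position along the body axis, was at 111 CPM against 48.9 and 48.0 (1.16 ± 0.43, adjusted p = 0.244), from 15 UMIs in 4 nuclei.

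The list of 8 local circuit factors summed to 533 CPM against 586 and 987, with 0 of 7 tested members called in edgeR or DESeq2 and 1, Nfia, at an unadjusted p under 0.05. Over all 11601 tested genes edgeR called 0.276%, and 695 higher and 1014 lower ones had an unadjusted p under 0.05. Nfia was at 44.4 CPM against 106 and 282 (adjusted p = 0.230). A list of 12 ventral excitatory factors had a single regenerating UMI, of Uncx, and summed to 7.41 CPM (0.188 to 41.3) against 62.7 and 51.0. In edgeR 0 of its 4 tested members were called, 0 had an unadjusted p under 0.05 and DESeq2 called 0. Sim1, a factor of ventral excitatory neurons, had 0 UMIs against 25 and 10 and was at least 1.06-fold lower, so a loss was not detectable at this depth.

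The list of 10 glutamatergic identity genes, which includes the Ebf genes, summed to 3822 CPM (3499 to 4166) against 1885 and 1619, within the 3420 to 4708 CPM of the other 5 libraries. Most of that sum came from Ebf1, Ebf2 and Ebf3. Ebf1 was also found in DI nuclei, at 1873 CPM against 3673 and 1432. Of 7 tested members 1 was called, Ebf2, against 0.276% of all tested genes, and 4 had an unadjusted p under 0.05 with higher values, against 695 of all 11601. Slc17a6 was at 148 CPM, between the traced 196 and 108 (log2 -0.16, adjusted p = 0.903). Lmx1b, a factor of dorsal excitatory neurons, was at 133 CPM against 51.7 and 33.0 (log2 1.49 ± 0.53, adjusted p = 0.233). Counting excitatory subtypes only, the sum was 4799 CPM against 1984 and 2373. Inhibitory identity genes summed to 459 CPM (352 to 589) against 196 and 318, with 0 of 9 tested members called in edgeR or DESeq2 and 3 at an unadjusted p under 0.05. Gad1 was at 51.8 CPM against 16.5 and 24.0 (1.46 ± 0.61, adjusted p = 0.292), with the other libraries at 45.9 to 61.3 CPM. The share of neurons with inhibitory names was 22.7%, against 11 of 80 and 8 of 25 traced neurons. Dorsal horn peptides and receptors summed to 889 CPM against 756 and 597, and of 22 tested members 1, Nmu, was called. A list of 10 ventral inhibitory factors summed to 104 CPM against 128 and 126, with 0 of 3 tested members called in edgeR or DESeq2 and 0 at an unadjusted p under 0.05.

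Genes linked to axon regrowth showed no call. In 8 lists on growth, with 142 tested genes, edgeR and DESeq2 each called 0, against 0.276% of all tested genes in edgeR. At an unadjusted p under 0.05 there were 11 higher and 16 lower genes, against 695 and 1014 of all 11601. Of 35 regeneration-associated genes 34 were in the matrix, and 18 had a regenerating UMI. The 34 genes summed to 1644 CPM (1435 to 1875) against 1405 and 1394, above all 7 other libraries, the highest of which had 1611. Their 20 tested members had a median log2 fold change of 0.15 (0.35 with bounds), against -0.28 (-0.07 with bounds) over all genes. Gap43, a protein of growing axon tips, was at 237 CPM against 136 and 108, from 32 UMIs in 19 nuclei, and above the 108 to 170 CPM of the other 5 libraries (0.88 ± 0.35, adjusted p = 0.272). The other classical members were barely detected: Sox11 had 3 UMIs (22.2 CPM against 41.3 and 30.0), Atf3 had 1 UMI against 0 and 0, and Jun had 0 UMIs at traced levels of 2.76 and 14.99 CPM. Plxna4, a semaphorin receptor, was at 630 CPM against 449 and 459 (0.45 ± 0.25, adjusted p = 0.401). Flrt3, a guidance gene, had 0 UMIs against 55 and 10.

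Immediate early genes, which report recent activity, summed to 163 CPM (102 to 247) against 105 and 126. This sum was 27.9 CPM, against 83.0 and 92.3, when the highest nucleus of each gene was left out, which also removes every gene with a single UMI. Arc had all 11 of its UMIs in 1 nucleus. Fos had 0 UMIs against 13 and 1, and Egr1 0 against 26 and 7. Axon cytoskeleton and transport genes summed to 12377 CPM against 10923 and 12931. There Kif1b, a transport motor, was at 770 CPM against 456 and 465 (0.72 ± 0.26, adjusted p = 0.238), and Kif5b at 51.8 against 114 and 120 (-1.20 ± 0.45, adjusted p = 0.256). Map1a was at 170 CPM against 63.4 and 93.0 (adjusted p = 0.195) and Tubb2a had 0 UMIs against 86 and 11.

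Guidance genes summed to 10873 CPM against 12736 and 11741. Ntng1, a netrin-G protein, was at 518 CPM against 864 and 1005 (-0.86 ± 0.26, adjusted p = 0.178), and the other 5 libraries had 343 to 475 CPM. Sema3c, a secreted semaphorin, was at 215 CPM against 83.3 and 123 (1.11 ± 0.35, adjusted p = 0.195), from 29 UMIs in 26 nuclei, and above all 7 libraries. Among growth factor receptors, Fgfr2 was at 178 CPM against 553 and 450 (-1.54 ± 0.35, adjusted p = 0.106), below all 7, and Fgfr1 at 178 against 75.8 and 75.0 (1.20 ± 0.40, adjusted p = 0.219), with 10 of 24 UMIs in 1 nucleus. The receptor list as a whole summed to 3052 CPM against 3002 and 3392. Among receptors of growth inhibitors Rtn4rl1, a Nogo receptor relative, was at 141 CPM against 33.1 and 30.0 (adjusted p = 0.164), with 7 of 19 UMIs in 1 nucleus. Translation and growth control genes summed to 2037 CPM against 2038 and 2060, and apoptosis and stress genes to 496 CPM against 331 and 435.

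Synaptic and channel genes had nearly the summed levels of traced neurons. Vesicle release genes summed to 10710 CPM against 10473 and 10448, adhesion genes to 65572 against 70452 and 60352, ionotropic receptors to 16554 against 16379 and 15654, and ion channels to 24539 against 22612 and 19826. Of 136 tested genes in these lists edgeR and DESeq2 called 0, against 0.276% of all tested genes in edgeR, so 0 calls carry little weight. At an unadjusted p under 0.05 were 13 higher and 14 lower genes, against 695 and 1014 of all 11601. In the channel list 9 members were higher and 1 lower at that level. Kcnq3, a potassium channel subunit, was at 1215 CPM against 716 and 519 (adjusted p = 0.205), with 26 of 164 UMIs in 1 nucleus. Kcnd3 was at 430 CPM against 222 and 153 (adjusted p = 0.152) and Kcnn2 at 267 against 528 and 504 (adjusted p = 0.174). In the vesicle list 7 members were lower and 1 higher at that level, among them Pclo, a scaffold of the release site, at 489 CPM against 801 and 885 (adjusted p = 0.213), and Syp at 81.5 against 172 and 165 (adjusted p = 0.247). Gria3, a glutamate receptor subunit, was at 274 CPM against 491 and 636 (adjusted p = 0.195).

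Genes of cholesterol synthesis were low. They summed to 237 CPM (162 to 335) against 654 and 672 in the traced libraries, and below all 7 other libraries. The hemisection libraries were at 272 and 278 CPM, and the uninjured library of experiment 2 at 917 CPM. All 19 tested members had negative fold changes, against 7047 of all 11601 tested genes, and 11 of the 19 had no regenerating UMI. The median was -0.68 over the 14 with a value at or above the floor, with genes without UMIs at their bound. In edgeR and DESeq2 0 were called, and 8 had an unadjusted p under 0.05. Msmo1, Hmgcs1 and Nsdhl, enzymes of this pathway, had 0 UMIs each, against 71 and 11, 50 and 12, and 48 and 16 in the traced libraries, and were at least 1.84, 1.58 and 1.82 times lower. At 300 UMIs per nucleus 4.48% of regenerating nuclei had a UMI of the list, against 21.2% and 5 of 25 traced nuclei.

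Mitochondrially encoded transcripts summed to 667 CPM (536 to 819) against 1374 and 1706. All 13 had negative fold changes, against 7047 of all 11601 tested genes, and 9 had an unadjusted p under 0.05. Of the 13, 4 had no regenerating UMI, so their sign was fixed, against 2150 genes without one among all 11601. Mitochondrially encoded transcripts reach nuclear preparations from the cytoplasm. Their sum ranged from 590 CPM in a hemisection library to 4639 CPM in the uninjured library of experiment 2. Transcripts of mt-Co3 were at 126 CPM against 282 and 369 (-1.36 ± 0.41, adjusted p = 0.178). Ribosomal protein genes summed to 889 CPM (737 to 1063) against 1424 and 1299, and untraced library 2 was at 850 CPM. Of the 45 ribosomal genes 37 were negative, and 5 had no regenerating UMI. Heat shock and unfolded protein genes summed to 459 CPM (352 to 589) against 710 and 675. This was below all 7 other libraries, but untraced library 2, at 469 CPM, and hemisection library 2, at 513 CPM, lay within the interval. Of 13 tested members 11 were negative and 2 positive, and 3 had no regenerating UMI. Hsph1, with the smallest p, was higher, at 119 CPM against 33.8 and 39.0 (adjusted p = 0.151). Over these 3 lists and cholesterol synthesis, with 90 tested genes, edgeR and DESeq2 called 0, against 0.276% of all tested genes in edgeR. At an unadjusted p under 0.05 there were 26 lower and 2 higher genes, against 1014 and 695 of all 11601. Genes that span less than 10 kb took 3.28% of regenerating UMIs and 4.37% and 4.26% of traced UMIs, and genes over 100 kb took 64.2% against 61.9% and 60.1%. The part of these shifts in the list results was not tested.

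**Figure D5:**
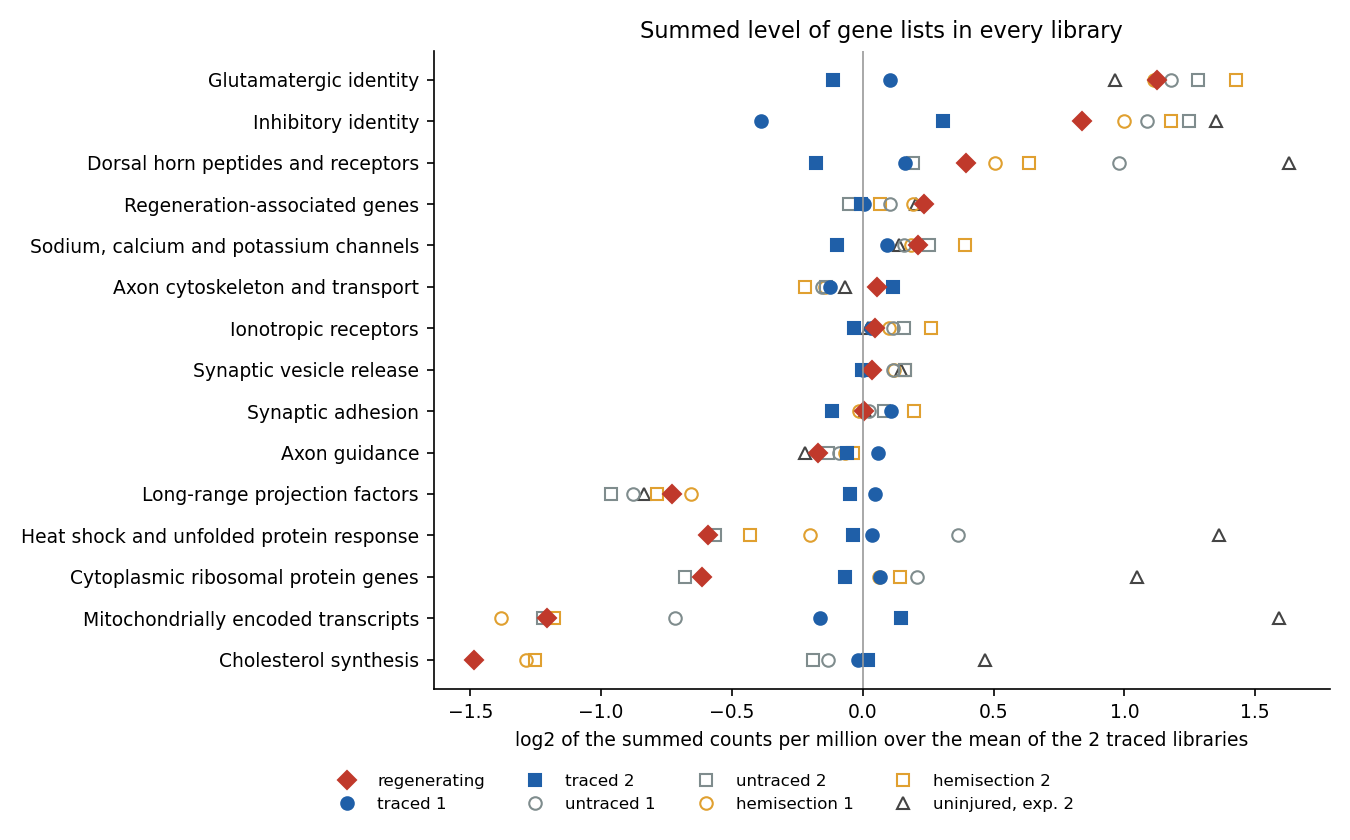
Summed CPM of 15 gene lists in every library, as log2 of the ratio to the mean of the 2 traced libraries. Regenerating neurons lie with the untraced and hemisection libraries for glutamatergic identity and long-range projection factors, near 0 for synaptic lists, and below all 7 libraries for cholesterol synthesis.

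Interferon response genes summed to 119 CPM (67.7 to 192) in regenerating neurons, against 89.5 and 207 in traced neurons and 492 and 677 after hemisection. Antigen presentation and complement genes summed to 59.3 CPM (25.6 to 117), against 45.5 and 66.0 and against 211 and 513 after hemisection. Of 28 tested members edgeR and DESeq2 called 0, against 0.276% of all tested genes in edgeR. At an unadjusted p under 0.05, 2 were higher and 0 lower, against 695 and 1014 of all 11601.

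Markers of other cell types were low in all 3 libraries. Oligodendrocyte markers summed to 178 CPM (114 to 264) with 5 of 10 detected, against 98.5 and 84.0, and the other 5 libraries had 106 to 807. Mbp, of myelin, had 17 UMIs in 7 nuclei, while Mobp had none. Astrocyte markers summed to 104 CPM with 2 of 6 detected (46.8 and 78.0 in traced neurons), with Aqp4 and Gja1 at 0. Microglia markers summed to 59.3 CPM with 3 of 7 detected (91.6 and 57.0), endothelial ones to 44.4 CPM with 2 of 4 (99.2 and 57.0), and haemoglobin genes to 111 CPM with 3 of 3 (98.5 and 54.0). The ependymal list summed to 96.3 CPM (22.0 and 14.99), all of it from Cfap299, with 13 UMIs in 10 nuclei. Precursor markers had 1 UMI, of Vcan, motor neuron markers 2, of Slc5a7, and fibroblast and Schwann cell markers 0. Markers of neurons that contact the cerebrospinal fluid summed to 81.5 CPM (8.95 and 0), beside 2 regenerating and 0 traced nuclei of the family CSF-N. All 6 regenerating UMIs of Pkd2l1 lay in 1 nucleus, as did all 5 of Pkd1l2. Without the highest nucleus of each gene the regenerating sum was 0. Over the 9 lists of other cell types, edgeR and DESeq2 called 0 of 30 tested genes, against 0.276% of all tested genes in edgeR. At an unadjusted p under 0.05 were 2 higher genes, Mbp and Cfap299, against 695 higher ones of all 11601. The part of these transcripts in the results above was not tested.

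The regenerating contrast was then set against injury within 1 experiment, by testing regenerating minus traced against hemisection minus uninjured of experiment 2. Of 11601 genes 13 differed (0.112%), 10 of them higher in the regenerating contrast (0.0862%) and 3 lower (0.0259%). Spidr rose by 4.28 in the first contrast and was at -0.57 in the second, a difference of 4.85 ± 0.80 (adjusted p = 0.0272). Fcho2 was at -3.12 and 0.31, a difference of -3.43 ± 0.57 (adjusted p = 0.0272). Pde1c and Tshz1, at 1.95 and 2.38 in the first, were at 0.07 and 0.63 in the second, and the differences had adjusted p of 0.0735 and 0.0913. For Ebf2 the values were 2.01 and 0.68 (adjusted p of the difference 0.160), and for Fgfr2 -1.54 and -1.36 (0.873). This count moved with single libraries, from 0 without traced library 1 and 23 without hemisection library 2 to 40 and 94 without untraced library 1 and 2, and it was 88 with the replicate number of experiment 1 as a block.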

How the data were processed

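Single-nucleus RNA of 8 libraries was analysed from the authors' deposited matrix of UMI counts, which holds raw whole-number counts with no normalization, and their deposited annotation of libraries, classes and subtypes. The submitters' processing notes name Cell Ranger 4.0.0, Seurat 3, mm10 and GRCm38. How nuclei were filtered, cleared of doublets and annotated is not given in the sources. Neither a filter on nuclei nor a doublet caller was added. Whether animals were pooled is not stated, so p-values measure the spread between these libraries, and intervals cover counting error only.

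Counts of annotated neurons were summed per library and tested with edgeR 4.0.16 in R 4.3.3 (TMM, filterByExpr with a minimum count of 10 and total of 15, quasi-likelihood test, 3 residual degrees of freedom, Benjamini-Hochberg over all tested genes, threshold 0.05). Adjusted p-values of genes in the text come from this fit. Shares of subtypes and families were tested the same way on numbers of nuclei, with total neurons as offset, for subtypes with at least 10 nuclei. On simulated counts of 11091 genes for regenerating against traced, 32% of genes raised by 1 on the log2 scale were called, 96% of those raised by 2, 14% lowered by 1 and 46% lowered by 2, with 4 unchanged genes called. The changed genes were drawn only from those with at least 10 expected regenerating UMIs, and 2962 genes reached 10 UMIs in the data. The simulation had no pile-up of UMIs in single nuclei and no group differences beyond the changed genes. Its rates do not cover lower genes or false calls from pile-up. A gene that passed the filter only through the group where it is high had to differ, which holds for low genes such as Gm17660, Fam167a and Lrrc36.

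Nuclei, gene lists (26) and marker lists (14) were chosen with earlier results of these data known. Named genes are the 10 largest called rises with at least 10 regenerating UMIs and the 10 largest called falls with at least 10 UMIs in each traced library, completed by smallest p, without unnamed gene models, mitochondrial and ribosomal protein genes; the 12 genes with most UMIs; 2 to 4 members per list by smallest p; the 5 subtypes with smallest p and the 5 with most nuclei; Zfhx3 and Hoxa7. Some genes and subtypes are not reported here. Coordinates are whole protein-coding genes of GENCODE M21 (GRCm38), which held 19641 of 19787 symbols. The 1 other annotation column was not used. Alternatives were DESeq2 1.42.0, RLE scaling, no filter, thinning, subsets of nuclei, single libraries left out, and a block. The block is the replicate number, which the titles give to the traced and untraced fractions of 1 uninjured replicate. The difference between replicates 1 and 2 had a correlation of 0.16 between traced and untraced fractions over 11601 genes (log2 of CPM + 10), and the regenerating library has no partner.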

Additional observations from a re-analysis of the deposited data

Results flagged for a closer look

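For 13 genes the regenerating minus traced difference differed from the hemisection minus uninjured difference of experiment 2 in edgeR's test of the difference itself. On the log2 scale the difference was 4.846 for Spidr, 4.45 for Nmu, 4.318 for Kcnj12, 3.789 for Cdk5rap1, 3.665 for Gm26992, 3.639 for Mbp, 3.544 for Zfp710, 3.521 for Elfn2, 3.262 for Nfe2l1 and 2.981 for Tmed9. It was -12.62 for Cenpv, which had no regenerating UMI so that this fitted value is no bound, -3.429 for Fcho2 and -2.508 for Wsb1. Adjusted p-values ran from 0.0156 to 0.0378. In Elfn2, Zfp710, Kcnj12, Cdk5rap1, Nfe2l1 and Tmed9 1 nucleus held 33 of 43, 21 of 23, 18 of 19, 15 of 17, 23 of 24 and 12 of 16 regenerating UMIs. Gm26992, an unnamed gene model, had 88 UMIs in 51 regenerating nuclei and was at 652 CPM, against 282 and 192 in traced, 210 and 141 in hemisection and 938 in the uninjured library of experiment 2. Mbp was at 126 CPM against 28.9 and 33.0, and the uninjured library of experiment 2 had 144. Wsb1 was at 81.5 CPM against 151 and 129, with 161 and 144 after hemisection and 52.0 in the uninjured library of that experiment.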

How the results depend on the processing

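Of the 32 genes called, DESeq2 called 26 again (41 in all, 39 higher and 2 lower), and thinning all libraries to the regenerating total gave 44 (27 higher, 17 lower, 17 shared), while with RLE scaling 31 of 32 calls were shared. Other settings moved the count of calls: 185 with no filter on low counts, 88 with only the regenerating and traced libraries, 14 with traced sums reweighted to the regenerating family shares, 3 with nuclei thinned to 300 UMIs (2121 genes tested), 0 with inhibitory subtypes only (1237 at an unadjusted p under 0.05), and, in alternatives chosen after seeing the data, 8 without the highest nucleus of each gene and 0 on numbers of nuclei with a UMI (1799 genes tested, 112 at an unadjusted p under 0.05). Leaving out 1 traced, untraced or hemisection library gave 0 to 49. For the difference between injury contrasts, 13 in all, the counts were 23 with DESeq2, 199 with no filter, 2 with thinned nuclei, 2 on nuclei with a UMI, 7 without the highest nuclei, and 0 to 94 with 1 such library left out. With the replicate number as a block, which pairs the traced and untraced fractions, 44 genes were called (32 shared) and 88 for the difference; subtype and family calls stayed at 0. Shares had 0 calls with each traced, untraced or hemisection library left out, and 1 family was called among nuclei with at least 500 UMIs. The ratio of genes detected in regenerating to traced nuclei at equal depth was 0.800 at 300 UMIs, 0.839 at 200 and 0.776 at 500. Called genes changed sign 8 times: with inhibitory subtypes only Cdk5rap1 (-7.15), Elfn2 (-0.52), Slx1b (-0.17), Ebf2 (-0.66) and Psmb1 (-9.24), with excitatory subtypes only Ttc26 (-8.54), and without the highest nucleus Ttc26 (-9.26) and Gtf2b (-0.64). Ttc26 had all 20 of its regenerating UMIs in 1 DI_Pdyn_Gal nucleus, so its values of -8.54 and -9.26 are fits to a count of 0 and no bound. Cdk5rap1 and Psmb1 had 0 UMIs in regenerating DI and VIP nuclei. Their values of -7.15 and -9.24 thus rest on few or no regenerating UMIs. The cause of the other changes was not tested, except that these alternatives use fewer nuclei. Values never called changed sign in 112 further cases. The depth of 135012 UMIs limits all results on genes under about 22.2 CPM.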
